A study of Mus musculus with 10 samples.

Results

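The 47 genes described here encode Polycomb proteins, histone demethylases, DNA methylation and demethylation enzymes, and a few SET-domain writers with the host cell factors. They were taken as all probe sets whose annotated symbol was among the 47 names, which gave 127 of the 45101 probe sets on the array. Islets of Men1 heterozygous mice carried 43 of these genes at measurable levels, as wildtype islets did, and no gene differed between the genotypes after adjustment for the number of probe sets tested. Most differences were bounded within 1.5-fold either way. The histone H3K4 demethylase Kdm5a held the only probe set in which all heterozygous mice lay above all wildtype mice, at 1.39-fold, a pattern also seen in 0.528% of all kept probe sets. The unadjusted p of this dim probe set was 0.010, and 0.052 without the 2 heterozygous mice high in lymphocyte genes. The other kept Kdm5a probe sets, among them the brightest, overlapped between the groups. The islets came from 5 female mice aged 5 weeks that were heterozygous for Men1 and from 5 wildtype female littermates of the same age, all given the strain label "C57 on a 129 background". About 100 islets were pooled from each animal, so the 10 arrays stand for 10 mice. The labels do not give the construct of the Men1 allele or the part of the gene that it lacks, and a heterozygous cell carries 1 intact copy unless it has lost it. Values are log2 signals made with GCRMA, a method that corrects the background of a short-oligonucleotide array, and a probe set was kept where it exceeded 4 on at least 5 arrays. At 100 islets a mouse the samples are bulk tissue, in which fewer cells of a type and less RNA per cell cannot be told apart.

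Menin, the product of Men1, is a subunit of the MLL1 and MLL2 complexes, which methylate lysine 4 of histone H3 (H3K4) at promoters. Polycomb works on the other side of this balance. Polycomb repressive complex 2 (PRC2) methylates H3K27 and Polycomb repressive complex 1 (PRC1) ubiquitinates H2A, and both marks go with silent genes. Histone demethylases remove methyl groups from H3K4, H3K27, H3K9 or H3K36, DNA methyltransferases place methyl groups on cytosine, and Tet enzymes oxidise them. In mouse beta cells Ezh2 and Bmi1 are known to keep the Ink4a/Arf locus silent in young animals, and Dnmt3a is known to keep genes silent that mature beta cells do not use.

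Several of these genes are expressed with the cell cycle in other cell types, under E2F factors. The promoters that hold an E2F motif are therefore shown, because the islets of young mice still contain dividing cells. Windows running from 250 bases before to 50 bases after a start site were given by RefSeq (GRCm38.p6) for 39 of the 47 genes, 57 windows in all. The motif was searched on both strands as TTTCCCGC, TTTCGCGC, TTTGCCGC or TTTGGCGC, and the 4 spellings differ only in their middle bases. It lay in 5 of the 57 windows (8.77%), each of another gene, against 744 of all 32851 windows (2.26%). CpG dinucleotides were more frequent too, with a median of 24 in the member windows against 7 in all windows. Each of the 4 spellings contains CG, and the windows compared were not matched for CpG content. The part of CpG content in the motif share was not tested. Capitals mark the motif, or its reverse complement where it lies on the opposite strand, in Ezh2 (chr6:47594981-47595280, minus strand), Suz12 (chr11:79992856-79993155, plus strand), Dnmt1 (chr9:20952574-20952873, minus strand), Uhrf1 (chr17:56304063-56304362, plus strand) and Phf19 (chr2:34913927-34914226, minus strand), each written 5′ to 3′ on the strand of the gene.
Ezh2: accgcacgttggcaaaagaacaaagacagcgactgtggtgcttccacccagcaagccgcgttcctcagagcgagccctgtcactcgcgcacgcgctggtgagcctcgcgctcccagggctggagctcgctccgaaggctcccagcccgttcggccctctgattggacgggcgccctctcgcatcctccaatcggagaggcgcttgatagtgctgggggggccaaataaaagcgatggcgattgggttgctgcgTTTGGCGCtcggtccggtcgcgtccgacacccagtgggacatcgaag
Suz12: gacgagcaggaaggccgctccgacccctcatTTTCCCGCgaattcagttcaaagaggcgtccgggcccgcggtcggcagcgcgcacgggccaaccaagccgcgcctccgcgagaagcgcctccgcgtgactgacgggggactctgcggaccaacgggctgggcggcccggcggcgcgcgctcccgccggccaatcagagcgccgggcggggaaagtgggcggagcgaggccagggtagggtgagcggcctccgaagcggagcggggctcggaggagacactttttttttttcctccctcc
Dnmt1: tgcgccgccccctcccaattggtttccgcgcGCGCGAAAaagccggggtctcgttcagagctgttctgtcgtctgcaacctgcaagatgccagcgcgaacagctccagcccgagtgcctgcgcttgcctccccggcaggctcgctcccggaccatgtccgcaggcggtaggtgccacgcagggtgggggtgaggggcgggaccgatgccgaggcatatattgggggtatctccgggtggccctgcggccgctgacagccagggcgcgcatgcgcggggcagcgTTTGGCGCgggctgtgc
Uhrf1: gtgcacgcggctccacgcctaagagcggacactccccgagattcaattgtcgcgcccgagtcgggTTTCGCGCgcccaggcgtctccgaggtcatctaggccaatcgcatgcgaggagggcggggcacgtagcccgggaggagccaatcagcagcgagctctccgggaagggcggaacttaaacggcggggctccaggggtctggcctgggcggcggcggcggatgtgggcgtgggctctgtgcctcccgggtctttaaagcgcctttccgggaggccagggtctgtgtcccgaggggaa
Phf19: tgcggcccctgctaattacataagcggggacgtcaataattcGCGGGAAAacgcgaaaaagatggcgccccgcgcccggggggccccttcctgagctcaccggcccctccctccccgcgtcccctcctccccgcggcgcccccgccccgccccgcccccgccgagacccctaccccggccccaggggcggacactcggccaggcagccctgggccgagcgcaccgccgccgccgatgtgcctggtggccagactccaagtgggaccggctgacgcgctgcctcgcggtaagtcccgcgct

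In Ezh2 the match lies 4 bases into the transcript, and the Dnmt1 window shown holds 2 matches, 219 bases before and 34 bases after its start. Suz12, Uhrf1 and Phf19 carry theirs 219, 185 and 208 bases before the start of the window shown. Dnmt1 and Uhrf1 also had windows at other start sites, and those held no match. A match in these letters is a description of the window and not of binding. Of the 5 genes, Ezh2, Suz12 and Dnmt1 had kept probe sets, whereas both probe sets of Uhrf1 and both of Phf19 stayed under 4 on every array.

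Array medians ran from 3.28 to 3.40, with between 18458 and 18890 probe sets above 4, and correlations of 0.962 to 0.988 over the 18567 kept probe sets. The control probe sets gave a 3 prime minus 5 prime signal, a sign of RNA quality, of 3.56 and 3.59 in heterozygous mice 3 and 4, against 3.23 to 3.32 in the other 3 heterozygous mice and 3.21 to 3.37 in wildtype mice. With this measure as a covariate 6 of the 43 member differences turned in sign, and its part in the results was not tested beyond those values. Men1 itself, read by 1416347_at, gave 6.82, 6.09, 6.56, 6.44 and 6.16 in heterozygous islets, against 7.21, 7.18, 6.83, 6.96 and 6.25 in wildtype islets. The groups overlapped, the difference (heterozygous minus wildtype here and throughout) was -0.47 (SE 0.20), and its limma p was 0.04 unadjusted and 0.9999 adjusted. Where that probe set lies relative to the changed part of the allele was not known, and the other 2 Men1 probe sets were below 4. Endocrine markers were bright in both groups, with a mean over 15 genes of 13.11 ± 0.26 in heterozygous and 13.14 ± 0.27 in wildtype islets, and 12 acinar genes were bright as well, at 15.13 ± 0.27 in heterozygous and 15.23 ± 0.17 in wildtype islets (SD, n = 5 each). All 8 measured lymphocyte genes averaged higher in heterozygous islets. Their list mean was 7.17 in heterozygous mouse 2 and 6.56 in heterozygous mouse 5, against 4.62 to 4.80 in the other 3 heterozygous mice and 4.76 to 5.55 in wildtype mice. All 18 stromal genes averaged lower, with list means of 8.11 to 9.81 in heterozygous and 9.10 to 9.80 in wildtype islets. None of the 18567 probe sets passed an adjusted p of 0.05 in limma (0% called, lowest adjusted p 0.72), while 760 (4.09%) had an unadjusted p under 0.05.

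Of the 47 genes, 43 had at least 1 kept probe set, 72 probe sets in all. The remaining 4 were Phf19 and Uhrf1 with 2 probe sets each, Pcgf2 with 2, and Tet3 with 1, which read between 2.18 and 3.13 on all arrays. Pcgf2 is a partner of the RING ligases, Tet3 an oxidase of 5-methylcytosine. None of the 72 probe sets passed the adjusted threshold, and the lowest adjusted p among them was 0.9999. At an unadjusted p under 0.05 stood 1 of the 72, higher in heterozygous islets, beside 4.09% of all kept probe sets in either direction and 2.57% that were higher. The same probe set, one of Kdm5a, was the only one whose groups did not overlap, beside 0.7% of all kept probe sets in either direction and 0.528% that were higher. A count of 1 lies below the background share for the first measure and is a single probe set for the second. Described by the brightest kept probe set of each gene, 26 of 43 genes averaged higher and 17 lower in heterozygous islets (60.5% higher, against 54.4% of all 10538 genes). The median difference was 0.04 over the member genes and 0.01 over all genes. The 95% interval of the difference lay within 1.5-fold either way for 36 of the 43 genes and within 2-fold for all 43. Counted over probe sets, 54 and 69 of the 72 members were bounded in this way, beside 71.1% and 94% of all kept probe sets. The 7 genes with wider intervals than 1.5-fold were Ring1, Cbx2, Cbx6, Kdm5a, Kdm5b, Dnmt3b and Tet1.

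**Figure D1:**
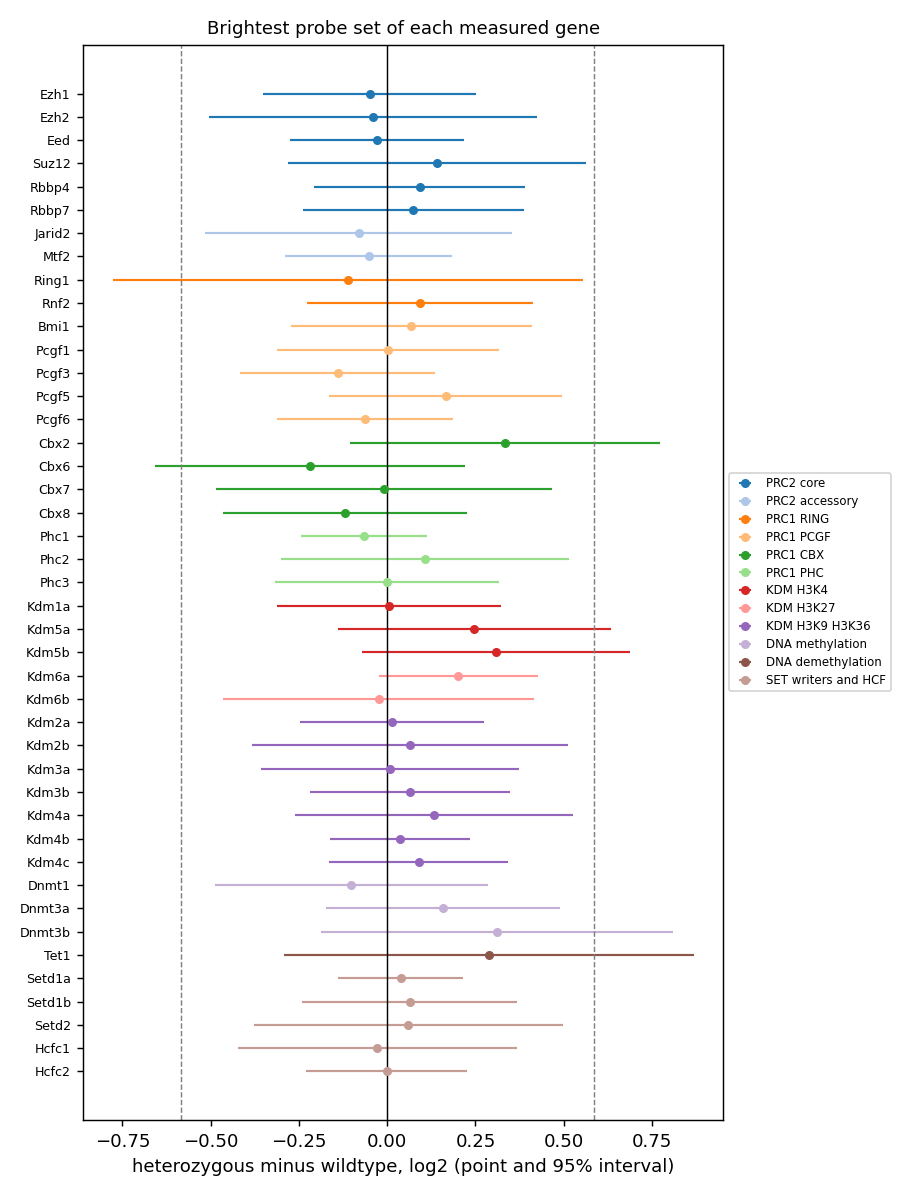
Difference between heterozygous and wildtype islets for the brightest kept probe set of each of the 43 measured genes (x axis, heterozygous minus wildtype on the log2 scale; points are differences and bars 95% intervals; colours are the 12 role groups, where KDM stands for histone demethylase and HCF for host cell factor). Every bar crosses 0, and the dashed lines mark a change of 1.5-fold either way.

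The sign counts moved with single mice. Heterozygous mouse 5 held the highest value of 13 of the 43 genes (30.2%, against 23.8% of all genes), and wildtype mouse 1 the lowest of 13 (30.2%, against 11.2% of all genes). Over the 72 probe sets, 43 averaged higher and 29 lower (56.4% of all kept probe sets were higher). The split was 32 higher and 40 lower without heterozygous mouse 5, and 35 and 37 without heterozygous mice 2 and 5, the pair with high lymphocyte genes. It leaned further the other way in different settings, with 53 higher and 19 lower under the 3 prime minus 5 prime covariate, 50 and 22 without wildtype mouse 3, and 49 and 23 without heterozygous mouse 2 or without heterozygous mouse 4.

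PRC2 consists of a methyltransferase, Ezh1 or Ezh2, with Eed, which binds the methyl mark, Suz12, the scaffold, and the histone chaperones Rbbp4 and Rbbp7. Of these 6 core genes 3 averaged higher and 3 lower. Ezh2 (1416544_at), the enzyme of dividing cells, gave 4.70, 5.51, 4.55, 5.36 and 5.31 in heterozygous islets, against 5.00, 5.34, 5.15, 4.71 and 5.43 in wildtype islets. The 2 groups covered nearly the same range, and the difference was -0.04 (SE 0.21) with a 95% interval of -0.51 to 0.42. Ezh1 (1449023_a_at), its counterpart in resting cells, averaged 8.23 ± 0.08 in heterozygous and 8.28 ± 0.30 in wildtype islets (SD, n = 5 each), a difference of -0.05 (SE 0.14). Eed (1448653_at) averaged 9.44 ± 0.17 in heterozygous and 9.47 ± 0.15 in wildtype islets, a difference of -0.03 (SE 0.11). Suz12 had 3 kept probe sets, and the brightest, 1420021_s_at, read 7.64, 7.63, 7.72, 7.64 and 7.91 in heterozygous islets, against 7.16, 7.61, 7.34, 7.40 and 8.32 in wildtype islets. Its highest and its lowest value both belonged to wildtype mice. Differences of the 3 Suz12 probe sets were 0.14, 0.25 and 0.16, with standard errors of 0.19, 0.24 and 0.18 and limma p of 0.325 or more. For the brightest the difference was 0.33 with an unadjusted p of 0.016 without wildtype mouse 5. The chaperones differed by 0.09 (SE 0.14) for Rbbp4 and 0.07 (SE 0.14) for Rbbp7 in their brightest probe sets. Both of these have an x suffix, which marks possible cross-hybridisation. Kept probe sets without it gave 0.07 (SE 0.20) and -0.17 (SE 0.42) for Rbbp4, and 0.06 (SE 0.13) for Rbbp7.

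Jarid2 and Mtf2, accessory subunits that help bring PRC2 to chromatin, both averaged slightly lower in heterozygous islets. Jarid2 (1422697_s_at) read 6.90, 6.66, 7.02, 7.54 and 6.76 in heterozygous islets, against 6.72, 7.09, 6.79, 7.56 and 7.12 in wildtype islets. These ranges overlapped almost fully, and the difference of -0.08 (SE 0.20) stood beside 0.11 (SE 0.16) for a further Jarid2 probe set, 1422698_s_at. For Mtf2 the 3 kept probe sets differed by -0.05, -0.06 and -0.04.

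PRC1 is built on a RING ligase, Ring1 or Rnf2, joined to 1 Pcgf protein, with Cbx and Phc subunits in its canonical form. Among the 14 measured PRC1 genes 6 averaged higher and 8 lower, and none had an unadjusted p under 0.05. Rnf2 (1424873_at), the main H2A ligase in many cell types, read 9.34, 9.33, 9.02, 9.16 and 9.78 in heterozygous islets, against 9.23, 9.21, 9.42, 8.97 and 9.34 in wildtype islets. Only heterozygous mouse 5 lay above all wildtype mice, and the difference was 0.09 (SE 0.15). A further Rnf2 probe set, 1451519_at, differed by 0.14 (SE 0.11) with a limma p of 0.199. Ring1 (1422647_at) averaged 6.32 ± 0.47 in heterozygous and 6.43 ± 0.60 in wildtype islets with a 95% interval of its difference of -0.78 to 0.55. The difference was -0.11, with 0.16 under the 3 prime minus 5 prime covariate.

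Bmi1 (1417493_at), the Pcgf protein linked to silencing of Ink4a/Arf, read 10.51, 10.26, 10.11, 10.19 and 10.79 in heterozygous islets, against 10.30, 10.21, 10.46, 9.97 and 10.57 in wildtype islets. The groups overlapped, and both Bmi1 probe sets gave a difference of 0.07, with standard errors of 0.15 and 0.19. Pcgf3 (1428423_at) read 7.62, 7.57, 7.48, 7.45 and 7.56 in heterozygous islets, against 7.29, 8.03, 7.72, 7.72 and 7.62 in wildtype islets. All 5 heterozygous values fell inside the wildtype range, and the difference was -0.14 (SE 0.13). Pcgf1, Pcgf5 and Pcgf6 differed by 0.0021, 0.17 and -0.06, with standard errors of 0.11 to 0.15.

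Cbx proteins carry the chromodomain of PRC1. Cbx2 (1434116_at) read 4.93, 4.93, 5.81, 5.11 and 4.93 in heterozygous islets, against 4.27, 4.98, 4.92, 4.92 and 4.95 in wildtype islets. Heterozygous mouse 3 was far above its group and wildtype mouse 1 far below its own, while the other 8 mice lay between 4.92 and 5.11. The difference of 0.33 (SE 0.20) had a limma p of 0.121 and ranged from 0.17 to 0.39 with each mouse left out in turn. Under the 3 prime minus 5 prime covariate it was 0.18. Cbx6 (1429290_at) differed by -0.22 (SE 0.20) and by -0.01 under that covariate, Cbx7 (1433557_at) by -0.01 (SE 0.22) and Cbx8 (1419198_at) by -0.12 (SE 0.16). Phc proteins link PRC1 complexes through their SAM domains. Phc2 (1437239_x_at) read 7.87, 7.86, 7.91, 8.53 and 8.34 in heterozygous islets, against 8.06, 7.94, 8.42, 7.53 and 8.02 in wildtype islets, a difference of 0.11 (SE 0.18) with overlapping groups. Its probe set 1416048_at pointed the other way at -0.20 (SE 0.14) and had the smallest p of the Phc genes, 0.189. Phc1 and Phc3 differed by -0.06 and -0.00058.

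**Figure D2:**
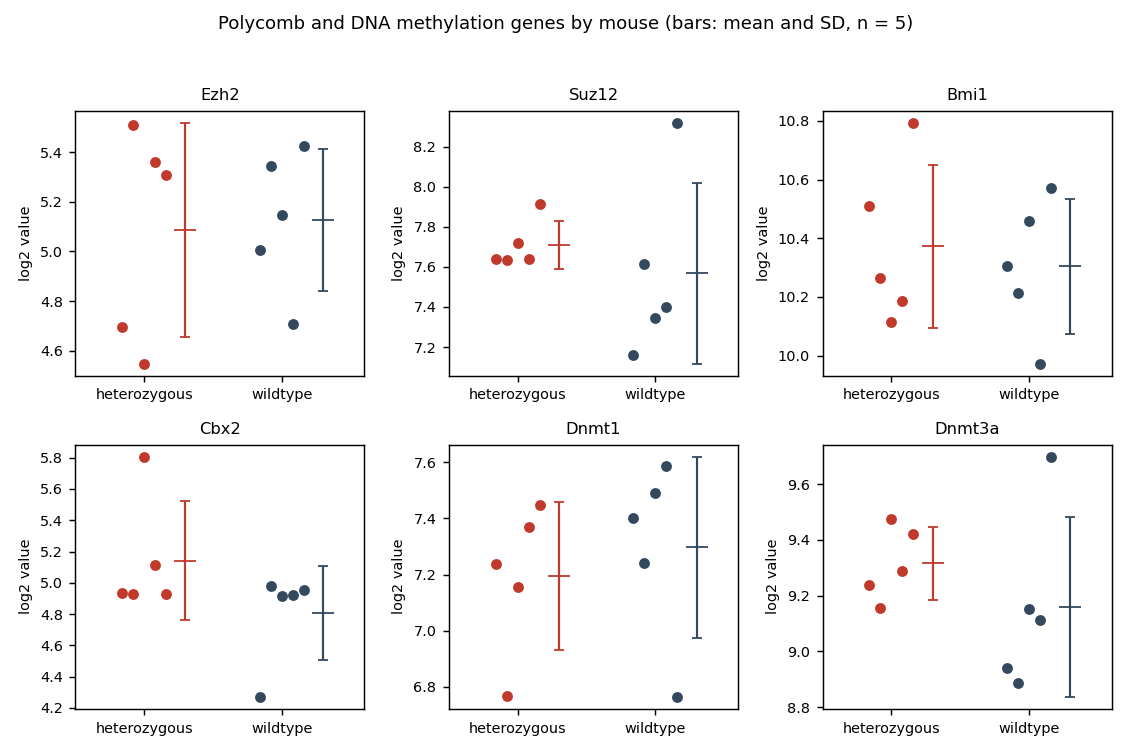
Log2 values (y axis) of the brightest kept probe set of Ezh2, Suz12, Bmi1, Cbx2, Dnmt1 and Dnmt3a in heterozygous and wildtype islets; each point is a mouse and bars give the mean and SD (n = 5). The groups overlap in all 6 panels, and the difference of Cbx2 rests on 1 high heterozygous and 1 low wildtype mouse.

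The H3K4 demethylases remove the mark that menin complexes place. Kdm5a and Kdm5b act on the trimethyl form, Kdm1a on the mono- and dimethyl forms. Kdm5a held the only member probe set with separate groups, 1437106_at, which read 5.02, 5.27, 5.10, 5.41 and 5.72 in heterozygous islets, against 4.52, 4.67, 4.96, 4.99 and 5.00 in wildtype islets. Every heterozygous value lay above every wildtype value, although the nearest pair, 5.02 in heterozygous and 5.00 in wildtype, nearly touched. The difference was 0.48 (SE 0.15), or 1.39-fold (95% interval 1.10 to 1.76), with a limma p of 0.010 unadjusted and 0.9999 adjusted. Its unadjusted p was under 0.05 with each of the 10 mice left out, where the difference ran from 0.37 to 0.55. Lymphocyte genes were high in heterozygous mice 2 and 5, and without those mice the difference was 0.35 with a p of 0.052. With the lymphocyte mean as a covariate the difference was 0.39 with a p of 0.033. This covariate was high mainly in those 2 heterozygous mice, so it cannot be fully separated from genotype.

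The other Kdm5a probe sets overlapped between the groups. The brightest, 1437105_at, read 7.36, 7.51, 6.53, 7.13 and 7.48 in heterozygous islets, against 6.80, 6.92, 6.94, 7.09 and 7.03 in wildtype islets. Heterozygous mice 1, 2, 4 and 5 were above every wildtype mouse and heterozygous mouse 3 below every one, and the difference was 0.25 (SE 0.18). It was 0.12 with the lymphocyte covariate and 0.05 without heterozygous mice 2 and 5, but 0.43 (p 0.020) with the 3 prime minus 5 prime covariate and 0.42 (p 0.0035) without heterozygous mouse 3. For 1452360_a_at the values were 4.60, 5.15, 4.40, 4.35 and 5.11 in heterozygous islets, against 3.06, 4.01, 3.32, 4.20 and 5.59 in wildtype islets. Wildtype mouse 5 had the highest value of all, and the difference of 0.69 (SE 0.41) had a limma p of 0.126, with 1.07 when that mouse was left out and 0.44 without wildtype mouse 1.

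Kdm5b (1427143_at) read 7.72, 7.82, 7.51, 7.55 and 7.90 in heterozygous islets, against 6.75, 7.37, 7.66, 7.62 and 7.55 in wildtype islets. Wildtype mouse 1 was well below all others, and the difference was 0.31 (SE 0.17) with a p of 0.101. Another Kdm5b probe set, 1427142_s_at, differed by -0.01 (SE 0.31). Kdm1a (1426762_s_at) averaged 10.86 ± 0.24 in heterozygous and 10.86 ± 0.22 in wildtype islets, a difference of 0.01 (SE 0.14), and its probe set 1426761_at differed by -0.19 (SE 0.20).

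Kdm6a and Kdm6b remove H3K27 methylation, the mark of PRC2, and Kdm6a is also a subunit of the MLL3 and MLL4 complexes. Kdm6a (1427672_a_at) read 8.36, 8.22, 8.50, 8.27 and 8.15 in heterozygous islets, against 7.96, 7.98, 8.12, 8.31 and 8.13 in wildtype islets. All 5 heterozygous mice were above the wildtype mean, but wildtype mouse 4 lay above 3 of them. The difference was 0.20 (SE 0.10) and its p 0.075, with 0.045 under the lymphocyte covariate and 0.039 without heterozygous mice 2 and 5, where the difference was 0.28. It was 0.169 with the 3 prime minus 5 prime covariate, 0.121 with the replicate block and 0.033 to 0.167 with each mouse left out. Its other kept probe set, 1427235_at, differed by 0.11 (SE 0.15). Kdm6b had 3 kept probe sets whose differences were -0.02, -0.16 and 0.23, the last from an x probe set.

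The other 7 demethylases act on H3K9 or H3K36. Kdm2a and Kdm2b bind CpG islands, and Kdm2b forms a PRC1 variant with Pcgf1. All 7 genes averaged higher in heterozygous islets, by 0.01 to 0.13, none with an unadjusted p under 0.45. Kdm4c (1424458_at), an H3K9 and H3K36 demethylase, had the smallest p and read 8.67, 8.62, 8.68, 8.61 and 8.81 in heterozygous islets, against 8.82, 8.42, 8.78, 8.30 and 8.64 in wildtype islets. The groups overlapped, and the difference was 0.09 (SE 0.11). Kdm2a, Kdm2b, Kdm3a, Kdm3b, Kdm4a and Kdm4b differed by 0.01, 0.07, 0.01, 0.07, 0.13 and 0.04. Taking the 12 demethylase genes together, 11 averaged higher with a median of 0.07, while 9 of the 22 measured Polycomb genes averaged higher with a median of -0.02. The demethylase count was 8 of 12 after a further quantile normalization, with the lymphocyte covariate, without heterozygous mouse 5, without wildtype mouse 2, and without heterozygous mice 2 and 5. These signs belong to differences that individually did not pass the test, and 54.4% of all genes were also higher.

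**Figure D3:**
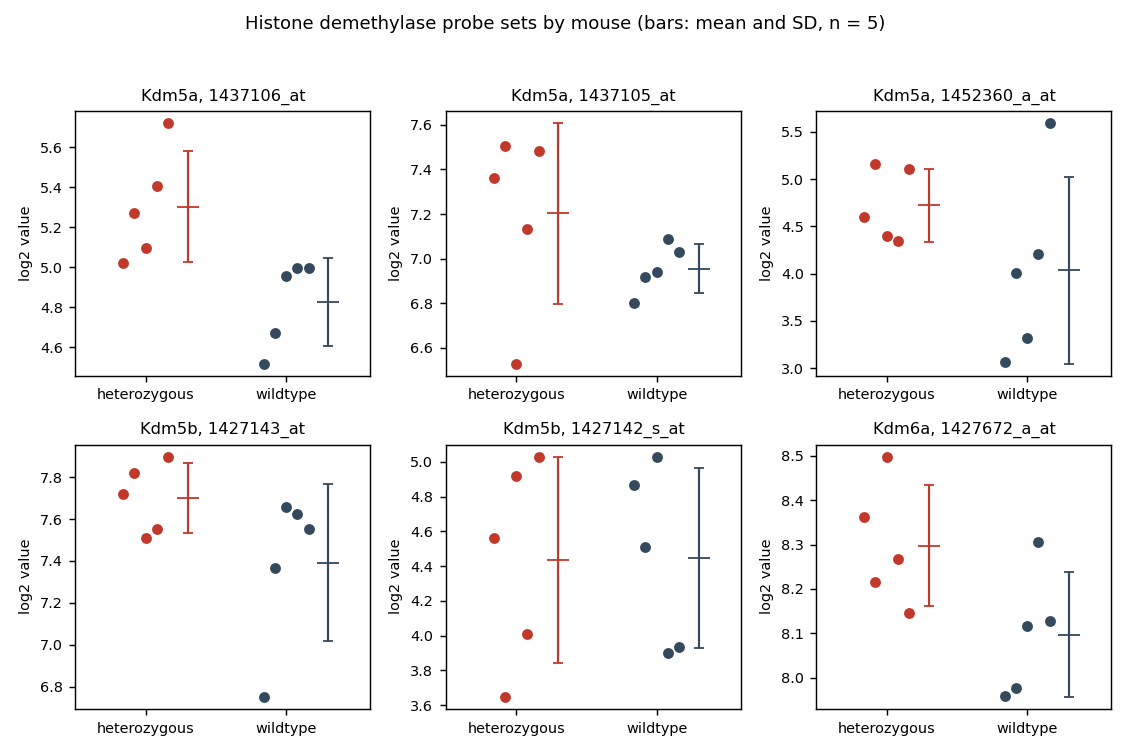
Log2 values (y axis) of 3 Kdm5a, 2 Kdm5b and 1 Kdm6a probe sets in heterozygous and wildtype islets; each point is a mouse and bars give the mean and SD (n = 5). The groups are separate in the first panel, Kdm5a 1437106_at, and overlap in the other 5.

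Dnmt1 copies DNA methylation after replication, with Uhrf1 as its guide to hemimethylated sites, and Dnmt3a and Dnmt3b place new methyl groups. Dnmt1 (1422946_a_at) read 7.24, 6.77, 7.16, 7.37 and 7.45 in heterozygous islets, against 7.40, 7.24, 7.49, 7.59 and 6.76 in wildtype islets. The groups overlapped, the difference was -0.10 (SE 0.17), and the 2 other Dnmt1 probe sets gave -0.07 and 0.14. Uhrf1 stayed between 2.18 and 3.13 on all arrays and was not compared.

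Dnmt3a had 4 kept probe sets. The brightest, 1460324_at, read 9.24, 9.16, 9.48, 9.29 and 9.42 in heterozygous islets, against 8.94, 8.89, 9.15, 9.11 and 9.70 in wildtype islets. Wildtype mouse 5 held the highest value, above all heterozygous mice, and the difference was 0.16 (SE 0.15), with 0.29 (unadjusted p 0.019) without that mouse. The probe sets 1423065_at and 1423066_at differed by 0.59 (SE 0.35) and 0.29 (SE 0.17), both with a p of 0.121 and the first with 0.29 under the 3 prime minus 5 prime covariate, and 1423063_at by -0.07 (SE 0.15). Of these, 1423065_at read 4.79, 5.00, 6.03, 6.04 and 5.81 in heterozygous islets, against 4.56, 4.36, 4.47, 5.59 and 5.74 in wildtype islets, and the 2 groups overlapped because wildtype mice 4 and 5 were within the heterozygous range. Dnmt3b (1449052_a_at) differed by 0.31 (SE 0.23), with 5.12 in heterozygous mouse 5 and 3.44 in wildtype mouse 1 as its extremes. Tet1 (1455425_at) was the only Tet gene kept among the members. Tet2 is not a member, and it was also kept, on the list of other DNA methylation genes. Tet1 read 5.42, 5.07, 5.30, 5.67 and 6.18 in heterozygous islets, against 4.80, 5.37, 6.05, 5.05 and 4.91 in wildtype islets. The ranges overlapped over most of their length, and the difference of 0.29 (SE 0.26) had an interval of -0.29 to 0.87.

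Setd1a and Setd1b are the enzymes of further H3K4 methyltransferase complexes, Setd2 trimethylates H3K36, and Hcfc1 and Hcfc2 are host cell factors, which join several of these complexes. Setd1b (1440836_at) read 7.98, 7.93, 8.26, 7.88 and 7.92 in heterozygous islets, against 7.61, 8.01, 7.72, 8.02 and 8.29 in wildtype islets. Wildtype mice held both the lowest and the highest value, and the difference was 0.06 (SE 0.14). A dim Setd1b probe set, 1437353_at, differed by 0.28 (SE 0.16) with a p of 0.118. Setd1a, Setd2 and Hcfc1 differed by 0.04, 0.06 and -0.03. Hcfc2 differed by -0.00098 in its brightest probe set and by 0.27 (SE 0.21) and -0.02 (SE 0.24) in the others.

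Agreement between probe sets of the same gene limits how far a single reading can be taken. Of the 43 genes, 20 had more than 1 kept probe set, and in 10 of these all differences had the same sign while 10 were mixed. Across the 10 mice, 35 of 39 pairs of probe sets had a positive correlation, with a median Pearson r of 0.60. Kdm2b had the closest pair, with r = 0.97 and Spearman's rho = 0.95 (permutation p 1e-05 and 0.00013, r = 0.94 without the 2 mice farthest from the median). Rbbp7 followed with r = 0.96. For Kdm5b the pair gave r = -0.23 (rho = 0.02, permutation p 0.598), so its 2 differences of 0.31 and -0.01 came from readings with no positive correlation between mice. Jarid2 was similar at r = -0.04. The 3 Kdm5a probe sets correlated at 0.54 to 0.62, with permutation p of 0.054 to 0.106 before any adjustment. Among the 72 kept member probe sets 8 have an s suffix and 6 an x suffix, which mark probes shared by several transcripts or open to cross-hybridisation.

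**Figure D4:**
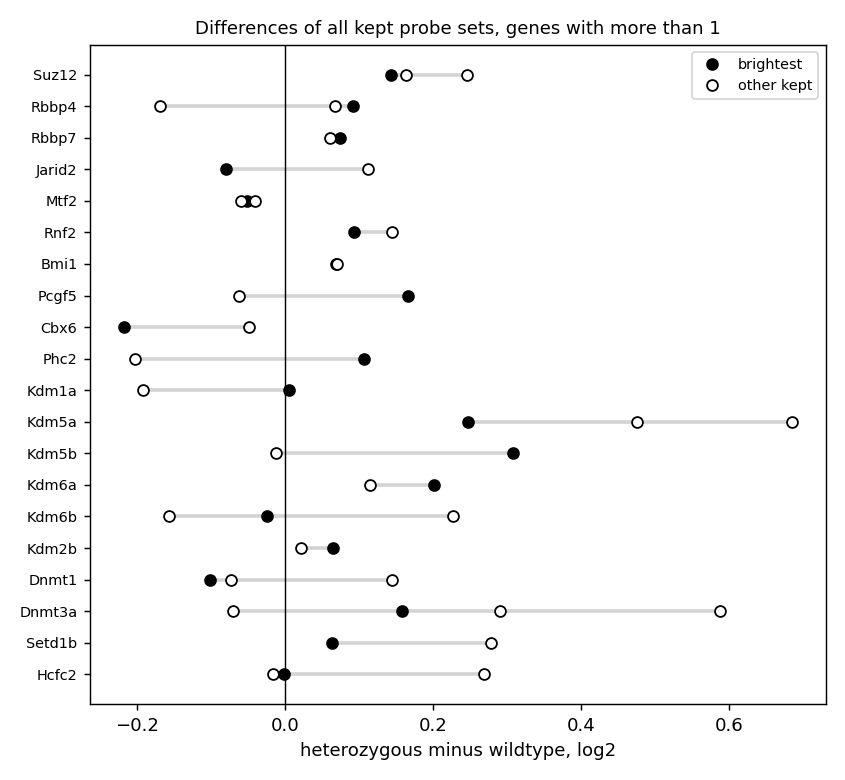
Differences between heterozygous and wildtype islets (x axis, log2) for all kept probe sets of the 20 genes with more than 1; filled points are the brightest probe set of a gene, open points the others, and grey lines join the extremes. Kdm5a, Suz12 and Kdm6a are among the 10 genes with all points on 1 side of 0, and Dnmt3a spans -0.07 to 0.59.

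Levels across the 10 mice were also set against the cell content of the islets, measured as the mean of marker lists. With 11 cycling genes, 3 of the 43 member genes had an unadjusted permutation p under 0.05, beside 6.03% of all 10527 genes, and none passed after Benjamini-Hochberg adjustment over all genes. The 3 were Cbx7 (r = -0.79, rho = -0.79, permutation p 0.0062 and 0.0092, adjusted p 0.762), Kdm2a (r = -0.76) and Ring1 (r = -0.67), all negative, beside 3.31% of all genes with such a negative relation. Without the 2 mice farthest from the median, r was -0.64 for Cbx7, -0.53 for Kdm2a and -0.15 for Ring1, so that of Ring1 rested on those mice. The genes with an E2F motif in the window shown above gave r = 0.23 for Ezh2, 0.29 for Suz12 and 0.07 for Dnmt1, with permutation p of 0.509, 0.425 and 0.847. Their r without the same 2 mice was -0.15, -0.22 and 0.54 in that order. With 18 stromal genes no member had an unadjusted p under 0.05, beside 7.19% of all genes. The lymphocyte list fell into separate clusters, heterozygous mice 2 and 5 against the other 8, so no relation over all 10 mice was computed. Within the 8 the list ran from 4.62 to 5.55. The highest of these, wildtype mouse 5, stood apart from the next, wildtype mouse 1 at 4.90, so the list varied little among the rest. Here 4 of 43 members had an unadjusted exact permutation p under 0.05, beside 6.74% of all 10530 genes. None passed the adjustment (0% of all genes, lowest adjusted p of a member 0.725). The 4 were Ring1 (r = -0.70), Cbx6 (-0.63), Rbbp4 (-0.70) and Kdm4a (-0.68), and without the 2 of these mice farthest from the median r was -0.45, -0.14, -0.59 and 0.30 in that order.

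With 15 endocrine genes, a list added after the data were seen, 8 of 43 members had an unadjusted permutation p under 0.05, beside 23.5% of all 10523 genes, and all 8 were positive, beside 15.2% of all genes. Kdm1a was the 1 member that passed the adjustment over all genes, and 358 of all genes (3.4%) passed it. Its r was 0.90 and its rho 0.90 (permutation p 0.00048 and 0.00083, adjusted p for r 0.0337). Without the 2 farthest mice r was 0.86, and on deviations from the genotype means it was 0.90 with an adjusted p of 0.0224. The r of Kdm1a stayed between 0.87 and 0.93 with each mouse left out, but a member passed the adjustment in only 2 of those 10 cases, with adjusted p from 0.0568 to 0.116 in the other 8. The further 7 were Mtf2 (r = 0.80), Hcfc2 (0.75), Bmi1 (0.72), Setd2 (0.71), Kdm2b (0.69), Eed (0.68) and Rnf2 (0.68). Ezh2, a dim gene with a mean of 5.11 over all mice, gave r = -0.02 with the same list. The acinar list mean was 14.70 and 15.01 in the mice highest in endocrine genes, heterozygous mouse 5 and wildtype mouse 3. It was 15.38 and 15.39 in the lowest, wildtype mouse 2 and heterozygous mouse 3. The part of acinar content in these relations was not tested.

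**Figure D5:**
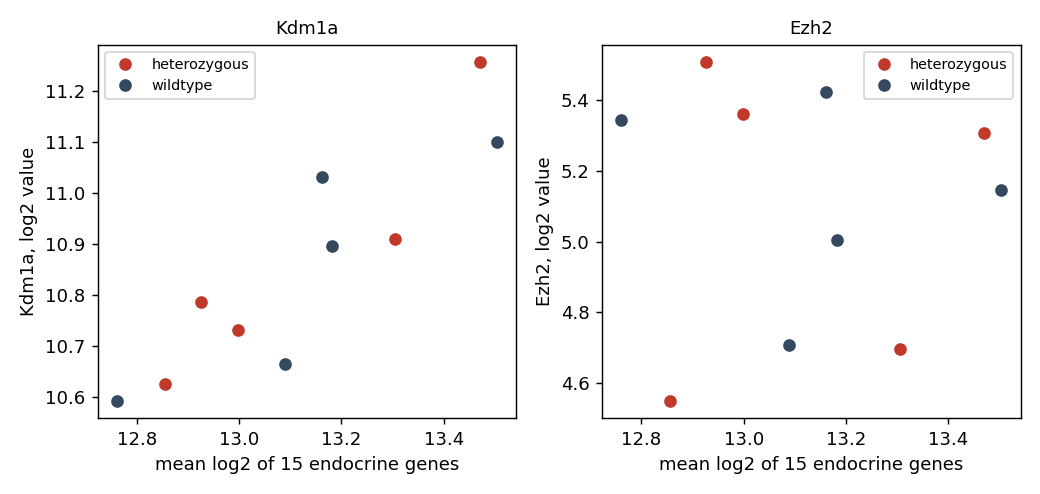
Log2 values of Kdm1a and Ezh2 (y axes) against the mean log2 value of 15 endocrine genes (x axes) in 5 heterozygous and 5 wildtype mice; each point is a mouse. Kdm1a follows the endocrine mean (r = 0.90) in mice of both genotypes, and Ezh2 does not (r = -0.02).

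Other genes of the same systems were read from further gene lists. Of 14 measured other Polycomb genes, 11 averaged higher and 3 lower, with the smallest p for Asxl2, a subunit of a Polycomb deubiquitinase, at 0.18 (SE 0.10). Among 13 other histone demethylases 8 were higher and 5 lower, led by Riox2 at 0.15 (SE 0.10). Of 14 other DNA methylation genes 10 were higher and 4 lower, led by Zbtb38, a methyl-CpG binding protein, at 0.24 (SE 0.14). The 7 genes listed as other H3K36 writers split 3 to 4. The smallest p was that of Setd3, whose place on this list is uncertain, at -0.19 (SE 0.13). None of these 4 lists held a gene with an unadjusted p under 0.05. The 15 menin and MLL complex genes, Men1 among them, split 8 to 7. Of these, 1 higher and 1 lower gene had an unadjusted p under 0.05, beside 4.09% of all kept probe sets in either direction. The higher was Ncoa6, a subunit of the MLL3 and MLL4 complexes, at 0.29 (SE 0.12, p 0.036). The lower was Men1 itself, at -0.47 (SE 0.20, p 0.04). Among 6 CDK inhibitors known as Polycomb or menin targets 3 averaged higher and 3 lower. At an unadjusted p under 0.05 stood 1 of the 6, higher in heterozygous islets, beside 2.57% of all kept probe sets that were higher. This was Cdkn2b, of the locus that Polycomb holds silent, at 0.50 (SE 0.15, p 0.0080). All 5 heterozygous mice were above the wildtype mean of Cdkn2b, but the groups overlapped. Of 13 genes that mature beta cells keep silent 11 averaged lower and 2 higher, 2 with an unadjusted p under 0.05, beside 4.09% of all kept probe sets and with 54.4% of all genes averaging higher. The one with the smallest p was Pdgfra at -0.78 (SE 0.24), also a stromal marker. All 18 stromal, 12 of 13 endothelial and 6 of 8 macrophage genes averaged lower as well, and their part in the result was not tested. Of 11 cycling genes 5 were higher and 6 lower. Racgap1, at 0.24 (SE 0.11, p 0.049), was the 1 with an unadjusted p under 0.05, beside 4.09% of all kept probe sets. No gene of these lists passed the adjusted threshold.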

How the data were processed

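Islet RNA of 10 mice was amplified and hybridised to 1 Affymetrix mouse array each. The deposited values are log2 signals, 1 per probe set and array, made by the authors with GCRMA, per the submitters' processing notes; its version is not named in the labels. This method shrinks weak signals to similar small values. Probe sets were named through the platform annotation, in which 932 carry several symbols and were not named, 1 of them for Kdm6b.

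After 64 control probe sets were left out, a probe set was kept if 5 or more arrays read above 4, which left 18567, and the 2 groups were compared with limma 3.58.1 in R 4.3.3 over all of them, with Benjamini-Hochberg adjustment and a threshold of 0.05. A gene was described by its kept probe set with the highest mean over all arrays. Relations across mice used Pearson's r and Spearman's rho with 100000 permutations, two-sided, and 20000 with a mouse left out, and were adjusted over all genes with a kept probe set; the lymphocyte list was related to members in 8 mice, by exact permutation, an alternative chosen after seeing the data. The scripts were tested on simulated data. The precision is limited by the number of mice, 5 in each group.

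The members and lists were chosen with earlier results of these data known. Genes named with values for each mouse are members with a kept probe set at an unadjusted p under 0.05 or with separate groups, the gene with the smallest p of each of the 12 role groups, and Ezh2, Bmi1, Dnmt1, Dnmt3a, Kdm6a and Men1. Uhrf1, also named by the rule, is given by its range because no probe set was kept. Kdm5b, and probe sets given by mouse other than a gene's brightest that the rule does not reach, were added after their values were seen. From every other list of pathway genes the gene with the smallest p is named. Same-numbered replicates were compared for pairing by the correlation of their deviations from the group means, which ran from -0.28 to 0.11 over the 5 numbers, so the numbers were not taken as pairs.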

Additional observations from a re-analysis of the deposited data

Results flagged for a closer look

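Single mice stood apart in 9 of 88 groups of 5 examined (10.2%), near the 9.58% of 21076 groups over all genes, where chance gives about 1 in 20. Heterozygous mouse 5 was the highest of its group for Pcgf1 at 6.15 (next 5.74), Dnmt3b at 5.12 (next 4.41) and Setd2 at 9.08 (next 8.26). Heterozygous mouse 3 was the highest for Cbx2 at 5.81 (next 5.11) and for Setd1b at 8.26 (next 7.98), and heterozygous mouse 1 was the lowest for Phc1 at 6.91 (next 7.10). Among wildtype mice, mouse 2 was the highest for Pcgf6 at 7.30 (next 7.04), and mouse 1 was the lowest for Cbx2 at 4.27 (next 4.92) and for Dnmt3b at 3.44 (next 4.28). All are log2 values of the brightest kept probe set.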

How the results depend on the processing

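No probe set passed the adjusted p in limma under any setting tried, over all kept probe sets or among the members, and the lowest adjusted p was 0.22, without heterozygous mouse 4. At an unadjusted p under 0.05 stood 760 of 18567 probe sets, against 508 of 12867 with a floor of 6, 1097 of 45037 with no filter and 393 of 10538 with 1 probe set a gene. On the same 18567 probe sets the other settings gave 599 to 1040. Among member probe sets the count of 1 became 0 to 7, with 7 when wildtype mouse 5 was left out. With the replicate number as a block, 786 probe sets and 2 member probe sets had an unadjusted p under 0.05 and 0 passed the adjustment. Of the 43 brightest member probe sets, 10 turned in sign with the lymphocyte mean as a covariate, 8 without heterozygous mice 2 and 5, 6 with the 3 prime minus 5 prime covariate, and 24 at least once with a mouse left out. Among the members named by rule, the lymphocyte covariate turned the difference to 0.037 for Jarid2, -0.00036 for Rnf2, -0.0011 for Bmi1 and 0.0018 for Dnmt1. Without heterozygous mice 2 and 5 it turned to 0.098 for Jarid2, -0.060 for Rnf2 and -0.035 for Bmi1. With the mean of all kept probe sets it turned to 0.016 for Jarid2 and -0.048 for Phc2. With each mouse left out in turn, differences ran from -0.22 to 0.045 for Jarid2, -0.020 to 0.17 for Rnf2, -0.0098 to 0.21 for Phc2, -0.016 to 0.15 for Setd1b, -0.15 to 0.094 for Ezh2, -0.036 to 0.14 for Bmi1 and -0.23 to 0.0056 for Dnmt1. Ranges without a change of sign were 0.041 to 0.33 for Suz12, 0.12 to 0.49 for Tet1, 0.090 to 0.29 for Dnmt3a, -0.24 to -0.051 for Pcgf3, 0.017 to 0.15 for Kdm4c, 0.17 to 0.39 for Cbx2, 0.17 to 0.42 for Kdm5a and 0.15 to 0.25 for Kdm6a. The number of members related to the endocrine list, 1, was 0 without the 2 mice farthest from the median and 0 to 1 with each mouse left out. The cause of these changes was not tested. Dim probe sets, near the value of 4 at which they were kept, are the least certain.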
